A study of Mus musculus with 14 samples.

Results

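The comparison described here set 3 arrays of ventilated mouse lungs titled VILI PBEF+/- against 4 Control arrays, which makes 7 of the 14 arrays in the series. VILI stands for ventilator-induced lung injury. Per the labels, the VILI PBEF+/- lungs were ventilated for 4 hours at a tidal volume of 40 ml/kg and came from mice of 8 to 12 weeks, whereas the Control lungs received PBS and came from mice of 18 to 22 weeks. The series text gives the tidal volume as 30 ml/kg instead, and a free-text label calls all 14 lungs those of controls, so groups follow the titles. PBEF, pre-B-cell colony-enhancing factor, is the older name of the Nampt product. The titles do not define PBEF+/-, and the series text speaks of recombinant human PBEF placed in the airway and names no genotype or strain. Ventilation, the PBEF+/- label and age therefore differ together between the groups and cannot be told apart. Sex, as read from X- and Y-linked genes below, is not balanced between the groups either. The other groups are VALI (4 arrays, the same ventilation at 18 to 22 weeks) and PBEF+/- (3 arrays, not ventilated, 18 to 22 weeks). Each array measured total lung RNA (6 ug) on an Affymetrix whole-genome chip, and values are log2 expression values as deposited. Nothing in the labels says that the arrays of a group came from separate animals or whether animals were pooled, so each p-value speaks only of spread among arrays, which may be technical, and their number limits the precision.

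Mechanical ventilation at a high tidal volume overstretches the alveolar wall. Stretched epithelium and endothelium are known to release cytokines and chemokines that draw neutrophils from the blood, to lose barrier function and to leak plasma into the air spaces. NAMPT makes the NAD precursor nicotinamide mononucleotide inside cells and is also secreted as a cytokine.

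Some arrays stood apart before any comparison. Il6 read 2.78 in VALI replicate 4 and 10.87 in PBEF+/- replicate 3, which goes against both labels, and neither array entered the fit of VILI PBEF+/- against Control. Xist, transcribed from the inactive X chromosome of female cells, was high in all 3 VILI PBEF+/- arrays (13.56 to 13.80) and in Control replicates 2 and 3 (13.73 and 13.33) but low in Control replicates 1 and 4 (2.55 and 2.56). The Y-linked gene Eif2s3y read 10.74 and 10.56 in Control replicates 1 and 4, 3.13 in Control replicates 2 and 3 and 3.15 to 3.28 in VILI PBEF+/- lungs. Y-linked Uty and Kdm5d split the arrays in the same way. By these genes Control replicates 1 and 4 read as male and the other 5 arrays as female. A fit of only the 5 arrays with high Xist called 3077 genes (1070 higher, 2007 lower), and where it lowered a list's count of calls by over 1.5 times, that is given beside the list. Array medians lay between 4.60 and 4.75 in all 14 arrays, and the arrays correlated at 0.978 to 0.994 within VILI PBEF+/-, at 0.977 to 0.993 within Control and at 0.922 to 0.958 between the groups, across 11246 genes, which are not independent replicates. Lung markers were high in both groups, with surfactant gene Sftpc at 15.38 to 15.47 in VILI PBEF+/- lungs and 15.61 to 15.70 in Control lungs.

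The chip named 18194 genes, and limma tested the 11246 with values over the array's own median in 3 or more of 7 arrays. At a Benjamini-Hochberg adjusted p under 0.05, 3748 genes were called (33.3% of those tested), of which 1182 were higher in VILI PBEF+/- lungs (10.5%) and 2566 lower (22.8%). The rises were larger than the falls. As measured, at least 16-fold differences were found for 37 genes that rose and 1 that fell, at least 4-fold differences for 153 and 50, and at least 2-fold differences for 424 (3.77%) and 471 (4.19%), 895 together (7.96%). With values below the array median raised to that median, a lower bound for genes near the floor, at least 16-fold differences were found for 30 and 1, at least 4-fold for 146 and 30 and at least 2-fold for 410 and 423. The median difference over all genes tested was -0.14 on the log2 scale, and when each array was centred on the median of the genes tested the split became 1642 higher and 1695 lower. Differences close to -0.14 therefore lie at the middle of all genes. List counts below are out of listed genes, while percentages of a list are out of its genes tested. Their background is the share of all genes tested, 10.5% higher and 22.8% lower. For 4849 genes (43.1%) the ranges of the groups were apart. Without VILI PBEF+/- replicate 1 the fit called 1706 genes and without replicate 2 it called 2030, while replicate 3 lay nearest to Control in 605 of the 895 called genes with an at least 2-fold difference (67.6%).

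**Figure D1:**
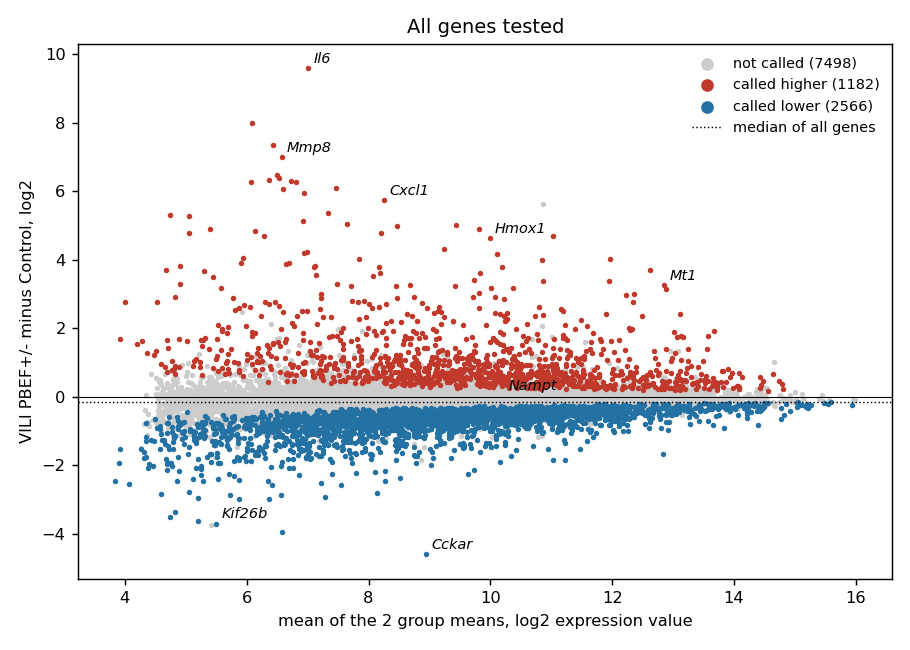
Difference between VILI PBEF+/- and Control lungs (log2, y axis) against the mean of the 2 group means (log2 expression value, x axis) for the 11246 genes tested, 1 point per gene. The 1182 genes called higher (red) reach a difference of 9.59 at Il6, while the 2566 genes called lower (blue) mostly lie close to 0, with Cckar at -4.60 as the lowest.

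Cytokines and chemokines showed the largest rises. Il6 encodes interleukin-6, which drives the acute phase response and signals through STAT3. Il6 read 12.75, 12.33 and 10.32 in VILI PBEF+/- lungs, against 2.09, 2.13, 2.15 and 2.45 in Control lungs. Every Control value was below its array median, where values carry no reliable order. With such values raised to the array median, Il6 was at least 141-fold higher (log2 difference as measured 9.59 ± 0.51 SE, limma adjusted p = 3.38e-05). Neutrophil attractants rose alongside it. Cxcl1 read 12.09, 11.26 and 10.03 in VILI PBEF+/- lungs, against 5.75, 5.83, 4.89 and 5.06 in Control lungs (53.7-fold, 5.75 ± 0.46, limma adjusted p = 0.000179). Cxcl2 read 11.11, 10.37 and 8.82 in VILI PBEF+/- lungs, against 2.59, 2.62, 3.40 and 2.44 in Control lungs (at least 43.5-fold). Both genes had no overlap between groups, and their lowest ventilated value was that of replicate 3, as for Il6. Ccl2, which attracts monocytes, read 10.94, 10.65 and 8.08 in VILI PBEF+/- lungs, against 3.48, 3.60, 3.51 and 3.72 in Control lungs (at least 37.6-fold). Ccl3, another attractant of monocytes and neutrophils, read 8.50, 7.49 and 7.12 in VILI PBEF+/- lungs and 2.35 to 2.43 in Control lungs (at least 8.25-fold). Il1b, the inflammasome-processed cytokine, read 11.41, 11.74 and 11.08 in VILI PBEF+/- lungs and 5.85 to 7.72 in Control lungs, a 20.1-fold difference.

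In all, 13 of the 22 listed cytokine and chemokine genes were called higher and none lower, beside 10.5% higher among all genes tested. The 9 others comprise 2 that were tested and not called and 7, among them Tnf, Il1a, Csf3 and Osm, that did not exceed the array median in 3 arrays. Of the 15 that were tested, 6 were below the array median in every Control array, so that they entered the test through VILI PBEF+/- arrays alone and could only appear as rises.

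NF-kB is the textbook regulator of this gene group. Of the 10 called members with a RefSeq promoter, 5 held, on either strand, the NF-kB letters GGGA, any base, then TTTCC. The proximal promoters of these 5 are shown, chosen by the match and not by the size of the rise. Over all 27025 genes with a promoter in the same RefSeq table (build GRCm38.p6, 250 bases before to 50 after the start), 0.466% held the letters. Capitals mark the match, which is a description of letters and not evidence of binding.
Il6 promoter, chr5:30012864-30013163, plus strand: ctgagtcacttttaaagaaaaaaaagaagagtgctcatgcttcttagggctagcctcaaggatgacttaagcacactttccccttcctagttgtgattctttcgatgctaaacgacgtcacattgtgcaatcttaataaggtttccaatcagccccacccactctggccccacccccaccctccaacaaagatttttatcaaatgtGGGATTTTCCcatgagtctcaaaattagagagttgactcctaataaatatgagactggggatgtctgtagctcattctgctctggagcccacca
Cxcl1 promoter, chr5:90890995-90891294, plus strand: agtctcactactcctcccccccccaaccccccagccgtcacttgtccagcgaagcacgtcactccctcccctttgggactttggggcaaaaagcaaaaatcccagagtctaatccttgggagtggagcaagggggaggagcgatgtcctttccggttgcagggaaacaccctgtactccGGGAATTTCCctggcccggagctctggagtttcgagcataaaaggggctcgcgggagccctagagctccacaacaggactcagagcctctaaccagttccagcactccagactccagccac
Cxcl2 promoter, chr5:90903649-90903948, plus strand: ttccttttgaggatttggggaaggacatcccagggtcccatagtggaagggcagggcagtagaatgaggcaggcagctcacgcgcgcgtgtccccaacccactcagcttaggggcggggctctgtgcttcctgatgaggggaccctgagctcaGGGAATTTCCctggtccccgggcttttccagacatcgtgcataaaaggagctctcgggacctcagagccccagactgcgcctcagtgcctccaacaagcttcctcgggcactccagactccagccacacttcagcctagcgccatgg
Cxcl3 promoter, chr5:90785851-90786150, plus strand: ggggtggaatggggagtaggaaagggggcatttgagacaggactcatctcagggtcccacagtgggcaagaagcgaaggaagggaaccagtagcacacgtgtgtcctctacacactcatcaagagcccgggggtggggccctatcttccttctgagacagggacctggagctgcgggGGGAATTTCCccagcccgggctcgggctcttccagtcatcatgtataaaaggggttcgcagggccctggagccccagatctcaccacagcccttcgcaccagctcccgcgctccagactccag
Csf1 promoter, chr3:107760420-107760719, minus strand: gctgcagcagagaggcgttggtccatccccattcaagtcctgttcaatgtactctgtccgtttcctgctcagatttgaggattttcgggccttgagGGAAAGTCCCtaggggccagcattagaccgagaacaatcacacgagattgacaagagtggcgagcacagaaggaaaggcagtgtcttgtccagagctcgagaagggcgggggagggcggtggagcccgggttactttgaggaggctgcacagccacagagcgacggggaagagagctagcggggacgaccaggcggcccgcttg
The matches began at -44, -71, -97, -73 and -154 relative to the annotated start, in the order printed. Cxcl3, a further neutrophil attractant of the same chromosome 5 cluster, was at least 9.20-fold higher, and Csf1, the growth factor of macrophages, was 1.95-fold higher. Il1b, Csf1, Klf2, Asns, Chac1, Trib3 and the genes given as not called were named after their values were seen.

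Receptors and feedback inhibitors of cytokine signalling rose as a group, with 16 of 22 listed genes called higher and none lower, and 1 of the 19 tested was below the array median in every Control array. Socs3, the STAT3-induced inhibitor of interleukin-6 receptor signalling, read 14.62, 14.73 and 14.10 in VILI PBEF+/- lungs, against 10.69, 10.53, 10.66 and 11.16 in Control lungs. Its difference was 3.72 ± 0.19 on the log2 scale, 13.2-fold (limma adjusted p = 2.91e-05). Bcl3, an atypical IkB protein, was 12.3-fold higher, and Nfkbiz, another member of that family, 5.91-fold. Il1r2, the decoy receptor that binds interleukin-1 without signalling, read 9.89 and 8.73 in VILI PBEF+/- replicates 2 and 3 and 2.69 to 3.95 in Control lungs (over all 3 ventilated arrays at least 29.5-fold). Osmr, the receptor subunit for oncostatin M, was 3.08-fold higher. The promoters of Nfkbia and Nfkb2 held the NF-kB letters, 2 of 14 called members with a promoter.

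Neutrophil markers were higher throughout the ventilated lungs. Mmp8, neutrophil collagenase, read 10.39, 9.89 and 9.95 in VILI PBEF+/- lungs, against 2.91, 2.98, 3.41 and 2.98 in Control lungs (at least 42.8-fold, limma adjusted p = 2.39e-06). Cxcr2, the receptor for Cxcl1 and Cxcl2, read 9.02, 9.06 and 9.28 in VILI PBEF+/- lungs, against 5.71, 5.69, 6.17 and 5.77 in Control lungs (9.77-fold). Csf3r, the receptor for granulocyte colony-stimulating factor, was 9.53-fold higher, and S100a8, a subunit of calprotectin, 8.88-fold. Unlike the cytokines, these 4 genes were about as high in VILI PBEF+/- replicate 3 as in the other 2 replicates. Of 18 listed neutrophil markers, 10 were called higher and none lower, and 2 of the 13 tested were below the array median in every Control array. The groups did not overlap, the mean level of the 16 markers with a probe set being 8.39 to 8.59 in VILI PBEF+/- lungs and 5.73 to 6.60 in Control lungs. Granule genes of immature neutrophils, Camp, Mpo and Elane, did not exceed the array median in 3 arrays. In whole lung, more cells of a type and more RNA per cell cannot be told apart.

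Of 16 listed macrophage and monocyte genes 2 were called higher and 1 lower, which is 14.3% and 7.14% of the 14 tested, beside 10.5% and 22.8% of all genes. Cd14, the endotoxin co-receptor, read 11.25, 11.18 and 10.24 in VILI PBEF+/- lungs and 8.77 to 9.47 in Control lungs (3.27-fold). Msr1, a scavenger receptor, was 2.05-fold higher as measured, with 3 of 4 Control arrays below their medians, and its call was lost with the high-Xist arrays (limma adjusted p = 0.0662). Csf1r, the receptor for Csf1, was 1.32-fold lower, a call lost without VILI PBEF+/- replicate 1 or replicate 2 and with the high-Xist arrays. Chil3 and Siglecf, genes of alveolar macrophages, differed by 0.24 ± 0.28 and -0.13 ± 0.47 on the log2 scale and were not called.

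**Figure D2:**
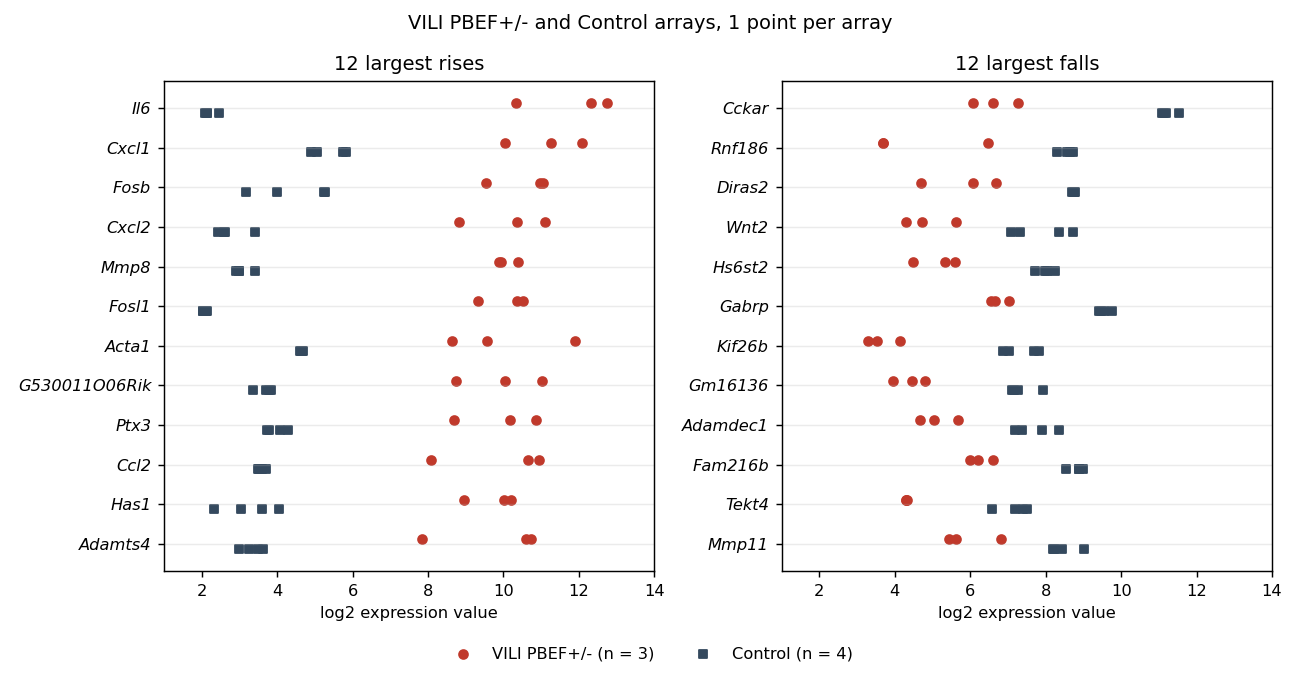
Log2 expression values (x axis) of the 12 genes with the largest rise (left) and the 12 with the largest fall (right), 1 point per array, VILI PBEF+/- as circles and Control as squares. The groups of every gene shown are separated, as the selection required, and Il6 has the widest gap, at 10.32 to 12.75 in VILI PBEF+/- lungs and 2.09 to 2.45 in Control lungs.

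Immediate-early transcription factors, which are induced within minutes of growth factor or stretch signals without new protein synthesis, rose together. Of 26 listed genes 21 were called higher and 2 lower, and 1 of the 26 tested was below the array median in every Control array. Fosl1, a subunit of the AP-1 dimer, read 10.37, 10.52 and 9.33 in VILI PBEF+/- lungs and 2.04 to 2.13 in Control lungs (at least 42.7-fold, limma adjusted p = 5.66e-06). Fosb, another AP-1 subunit, read 10.97, 11.05 and 9.55 in VILI PBEF+/- lungs, against 5.24, 3.17, 4.00 and 5.27 in Control lungs. Control replicates 2 and 3 were below their array medians, so the measured 68.6-fold difference is uncertain, and it was 47.3-fold with both raised to the median. Myc, the growth-promoting transcription factor, read 9.87, 10.04 and 9.68 in VILI PBEF+/- lungs and 5.41 to 6.48 in Control lungs (16.3-fold). Junb was 10.4-fold and Fos 5.33-fold higher, and Maff, a small partner of NRF2 and AP-1 proteins, 7.58-fold. The exceptions were Klf2 and Klf4, shear-responsive factors of endothelium. Klf2 read 11.84, 12.51 and 11.67 in VILI PBEF+/- lungs, against 13.87, 13.77, 13.77 and 13.29 in Control lungs (3.17-fold lower, -1.66 ± 0.21).

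Ligands of the EGF receptor and genes induced by stretch included 9 of 19 listed genes called higher and none lower, 52.9% of the 17 tested beside 10.5% of all genes. Of those tested, 1 was below the array median in every Control array. Without VILI PBEF+/- replicate 1 or replicate 2 the count of higher calls was 5. Ereg, the EGF receptor ligand epiregulin, read 10.25, 9.65 and 8.95 in VILI PBEF+/- lungs and 3.45 to 3.77 in Control lungs (at least 31.1-fold). Hbegf, a second ligand of that receptor, read 12.88, 13.20 and 11.77 in VILI PBEF+/- lungs and 10.09 to 11.20 in Control lungs (4.16-fold). Ccn1, a matrix-associated target of the YAP pathway, was 5.19-fold higher. Thbs1, thrombospondin-1, which activates latent TGF-beta, was 7.80-fold higher. Itgb8, an integrin subunit that also activates TGF-beta, was 3.20-fold higher.

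Oxidative stress genes under NRF2 rose, with 9 of 21 listed genes called higher and none lower, 52.9% of the 17 tested beside 10.5% of all genes. Of those tested, 1 was below the array median in every Control array. Hmox1, heme oxygenase-1, read 12.12, 12.23 and 12.57 in VILI PBEF+/- lungs, against 7.51, 7.61, 7.57 and 8.00 in Control lungs (24.9-fold, 4.64 ± 0.16, limma adjusted p = 5.66e-06). Srxn1, the peroxiredoxin reductase sulfiredoxin, read 12.71, 12.59 and 13.23 in VILI PBEF+/- lungs and 8.48 to 9.10 in Control lungs (16.1-fold). Slc7a11, the cystine importer that feeds glutathione synthesis, was at least 9.13-fold higher. Txnrd1, thioredoxin reductase, was 4.02-fold higher. Gclc, the catalytic subunit of the first enzyme of glutathione synthesis, was 3.81-fold higher. The spread among the 3 ventilated arrays was narrow for these genes, and replicate 3 was not the lowest for Hmox1 or Srxn1.

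Metallothioneins, small zinc-binding proteins induced by metals and glucocorticoids, rose with Slc39a14, a zinc importer, which makes 3 of 8 listed genes higher and none lower. Mt2 read 14.11, 14.21 and 13.62 in VILI PBEF+/- lungs, against 9.83, 10.21, 10.62 and 9.11 in Control lungs (16.4-fold). Mt1 was 9.56-fold higher and Slc39a14 4.67-fold.

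The ATF4 branch of the integrated stress response, which supplies amino acids when translation is curbed, had 15 of 19 listed genes called higher and 1, the lipoprotein receptor Vldlr, lower, a call lost without VILI PBEF+/- replicate 1 or 3 and with the high-Xist arrays. Of the 18 tested, 83.3% were higher and 5.56% lower, beside 10.5% and 22.8% of all genes. Mthfd2, a mitochondrial folate enzyme, read 9.21, 9.27 and 9.51 in VILI PBEF+/- lungs, against 6.08, 6.11, 6.11 and 6.02 in Control lungs (9.51-fold, 3.25 ± 0.12, limma adjusted p = 7.01e-06). Slc7a5, a carrier of large neutral amino acids, read 9.93 to 10.07 in VILI PBEF+/- lungs and 5.80 to 6.94 in Control lungs (12.3-fold). Atf4 itself was 3.16-fold higher, and Psat1, of serine synthesis, 5.15-fold. Ddit3, the pro-apoptotic factor CHOP, differed by 0.22 ± 0.16 and was not called. Chaperones of the endoplasmic reticulum gave a different count, with 1 of 15 listed genes called higher and none lower, 6.67% higher beside 10.5% of all genes. That gene was Xbp1, at 1.24-fold, and its call was lost without VILI PBEF+/- replicate 1, replicate 2 or Control replicate 4.

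Among 14 called ATF4-list genes with a RefSeq promoter, 4 (Trib3, Asns, Chac1 and Nupr1) held TGATGNAA, letters of the composite element bound by C/EBP and ATF proteins, against 4.51% of all genes in the table. The promoters of 3 of them are given with the match in capitals.
Asns promoter, chr6:7693160-7693459, minus strand: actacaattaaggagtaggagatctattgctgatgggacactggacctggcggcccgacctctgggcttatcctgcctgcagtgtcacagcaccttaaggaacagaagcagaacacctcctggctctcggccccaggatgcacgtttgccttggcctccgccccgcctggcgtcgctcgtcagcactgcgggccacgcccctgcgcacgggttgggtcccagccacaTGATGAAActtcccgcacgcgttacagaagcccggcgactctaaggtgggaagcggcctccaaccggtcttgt
Chac1 promoter, chr2:119350992-119351291, plus strand: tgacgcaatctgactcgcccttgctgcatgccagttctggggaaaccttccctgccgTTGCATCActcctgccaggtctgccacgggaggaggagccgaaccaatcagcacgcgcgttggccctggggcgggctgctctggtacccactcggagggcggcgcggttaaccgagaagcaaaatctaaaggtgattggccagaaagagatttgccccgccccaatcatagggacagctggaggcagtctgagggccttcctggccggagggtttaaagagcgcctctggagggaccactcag
Trib3 promoter, chr2:152344011-152344310, minus strand: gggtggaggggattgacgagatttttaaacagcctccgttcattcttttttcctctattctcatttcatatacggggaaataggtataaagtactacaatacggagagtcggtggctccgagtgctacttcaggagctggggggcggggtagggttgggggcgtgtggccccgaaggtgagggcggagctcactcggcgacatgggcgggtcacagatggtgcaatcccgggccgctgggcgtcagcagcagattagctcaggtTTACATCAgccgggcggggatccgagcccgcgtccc
Asns, asparagine synthetase, was 2.37-fold higher, with its match beginning at -23. Chac1, which degrades glutathione, read 9.21, 8.27 and 10.99 in VILI PBEF+/- lungs and 6.50 to 7.14 in Control lungs (6.20-fold), with its match at -193. Trib3, a pseudokinase that restrains ATF4, was 3.45-fold higher, with its match 14 bases past the start. In all, 7 motifs were searched. The antioxidant response letters TGACNNNGC stood in 4 of 6 called NRF2-list genes, in 14% of all genes and in 16.9% of the genes tested. They also stood in 6 of 14 called ATF4-list, 5 of 16 early response, 2 of 10 cytokine, 2 of 14 receptor and 1 of 15 ribosome biogenesis genes. The metal response letters TGCGCNC stood in both Mt1 and Mt2, in 17% of all genes and in 30.4% of the genes tested. They also stood in 7 of 16 called early response, 5 of 15 ribosome biogenesis, 2 of 6 NRF2-list and 2 of 14 ATF4-list genes, and in no called cytokine or receptor gene. AP-1 letters TGANTCA, which overlap the antioxidant letters in some sites, stood in 3 of 10 called cytokine genes and in 8.97% of all, and the E box CACGTG in 8.09% of all. The seventh motif, the serum response element, was searched only in a fixed spelling without variable bases. That spelling was found in none of the 7 lists scanned and in 0.0777% of all genes. Other spellings of the element, and bases outside the window of 250 before to 50 after the start, were not searched. Whether these genes lack the element therefore cannot be read from this search.

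Heat shock chaperones were less stable. Of 15 listed genes 6 were called higher and none lower, but without any 1 of VILI PBEF+/- replicates 1 to 3 or Control replicates 2 to 4 the count of higher calls was 1 to 3, and with the high-Xist arrays 3. Hspb8, a small heat shock protein of chaperone-assisted autophagy, read 11.79, 12.10 and 11.94 in VILI PBEF+/- lungs and 10.20 to 10.75 in Control lungs (2.59-fold, limma adjusted p = 0.000682). Hspa1b, inducible HSP70, read 14.21, 13.81 and 15.36 in VILI PBEF+/- lungs, against 14.20, 12.21, 12.23 and 12.10 in Control lungs, so that Control replicate 1 overlapped the ventilated range. Genes of ribosome biogenesis rose by smaller and more even steps, with 18 of 22 listed genes called higher and none lower. Rrp12, a ribosome export factor, read 8.18, 7.71 and 8.62 in VILI PBEF+/- lungs and 5.44 to 5.86 in Control lungs (5.71-fold). Gnl3, nucleostemin, was 2.68-fold higher, Rrs1 2.30-fold and Wdr43 2.36-fold.

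**Figure D3:**
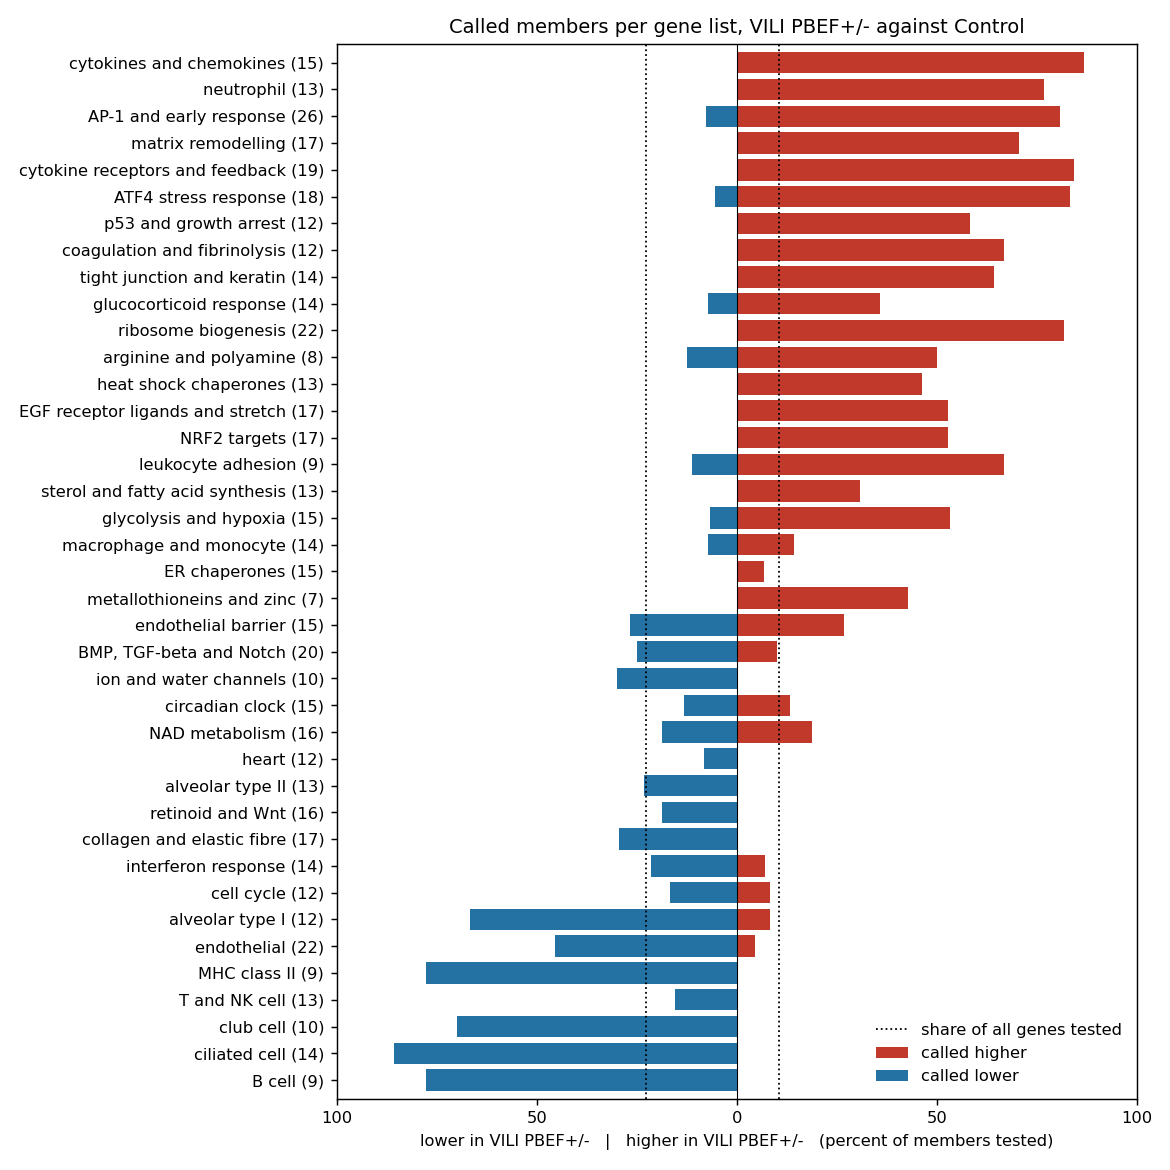
Percent of the tested members of each gene list that were called higher (red, to the right) or lower (blue, to the left) in VILI PBEF+/- lungs against Control, with the number tested in parentheses and lists ordered by their median difference; lists with fewer than 5 tested members are not drawn. The dotted lines give the shares over all genes tested, 10.5% higher and 22.8% lower, and the cytokine list lies at 86.7% higher and the ciliated cell list at 85.7% lower.

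Epithelial keratins and tight junction genes rose while markers of several resident cell types fell. Of 15 listed keratin, claudin and related genes, 9 were called higher and none lower, and 2 of the 14 tested were below the array median in every Control array. Cldn4, a sealing claudin, read 9.81, 9.78 and 8.03 in VILI PBEF+/- lungs and 2.54 to 3.20 in Control lungs (at least 23.4-fold). Sfn, an epithelial 14-3-3 protein, was 31.6-fold higher. Krt8 and Krt18, which pair as the keratin filament of simple epithelium, were 3.43-fold and 3.69-fold higher, and Krt19 2.62-fold.

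Ciliated cell markers had the highest share of lower calls among the resident cell lists, with 12 of 16 listed genes called lower and none higher, beside 22.8% lower among all genes tested. Fitting all 14 arrays as labelled gave 7 lower calls. Dynlrb2, a dynein light chain, read 10.66, 10.82 and 10.91 in VILI PBEF+/- lungs, against 11.86, 11.89, 11.86 and 11.74 in Control lungs (2.06-fold lower, -1.04 ± 0.08, limma adjusted p = 0.000189). Tppp3, a tubulin polymerisation protein, was 1.66-fold lower. Akap14, an anchoring protein of the axoneme, read 2.63, 2.56 and 4.22 in VILI PBEF+/- lungs and 6.04 to 6.93 in Control lungs (at least 3.63-fold lower). Foxj1, the master regulator of motile cilia, read 8.29, 8.52 and 9.32 in VILI PBEF+/- lungs, against 10.34, 10.02, 10.13 and 9.18 in Control lungs, with Control replicate 4 inside the ventilated range. In the list, 3 of 14 tested members were below the array median in every VILI PBEF+/- array and could only appear as falls. Among the 12 largest falls were Tekt4, at least 5.72-fold lower, and Fam216b, 5.91-fold lower. Tekt4 encodes a tektin of cilia and flagella.

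Club cell markers followed, with 7 of 11 listed genes called lower and none higher, 70% of the 10 tested beside 22.8% of all genes. Cyp2f2, the club cell cytochrome P450, read 13.88 to 14.07 in VILI PBEF+/- lungs and 14.67 to 14.98 in Control lungs (1.75-fold lower). Cldn10 was 3.25-fold lower and the secretoglobin Scgb3a2 1.54-fold. Scgb1a1, the most abundant club cell secretion, was 1.17-fold lower at a level of 15.77 to 15.89 in VILI PBEF+/- lungs and 16.02 to 16.08 in Control lungs, near the top of the scale.

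Of 12 alveolar type I markers 8 were called lower and 1 higher, 66.7% and 8.33% beside 22.8% and 10.5% of all genes. The count of lower calls became 3 when arrays were centred on the genes tested and 5 without VILI PBEF+/- replicate 1. Rtkn2, a marker of type I cells, read 10.95, 10.48 and 11.41 in VILI PBEF+/- lungs and 12.12 to 12.28 in Control lungs (2.41-fold lower). Ager, the type I surface receptor RAGE, was 1.25-fold lower and Cav1, caveolin-1, 1.24-fold. Of 14 alveolar type II markers 3 were called lower and none higher, which is 23.1% of the 13 tested and near the 22.8% of all genes. That count was 0 without VILI PBEF+/- replicate 1, 1 without replicate 2, 9 without Control replicate 1, 1 with the centred arrays and 8 with the 5 high-Xist arrays. Sftpc was 1.16-fold lower, and Sftpb, another surfactant protein, differed by -0.13 ± 0.10 and was not called. The plot of resident cell markers shows these values with their errors.

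**Figure D4:**
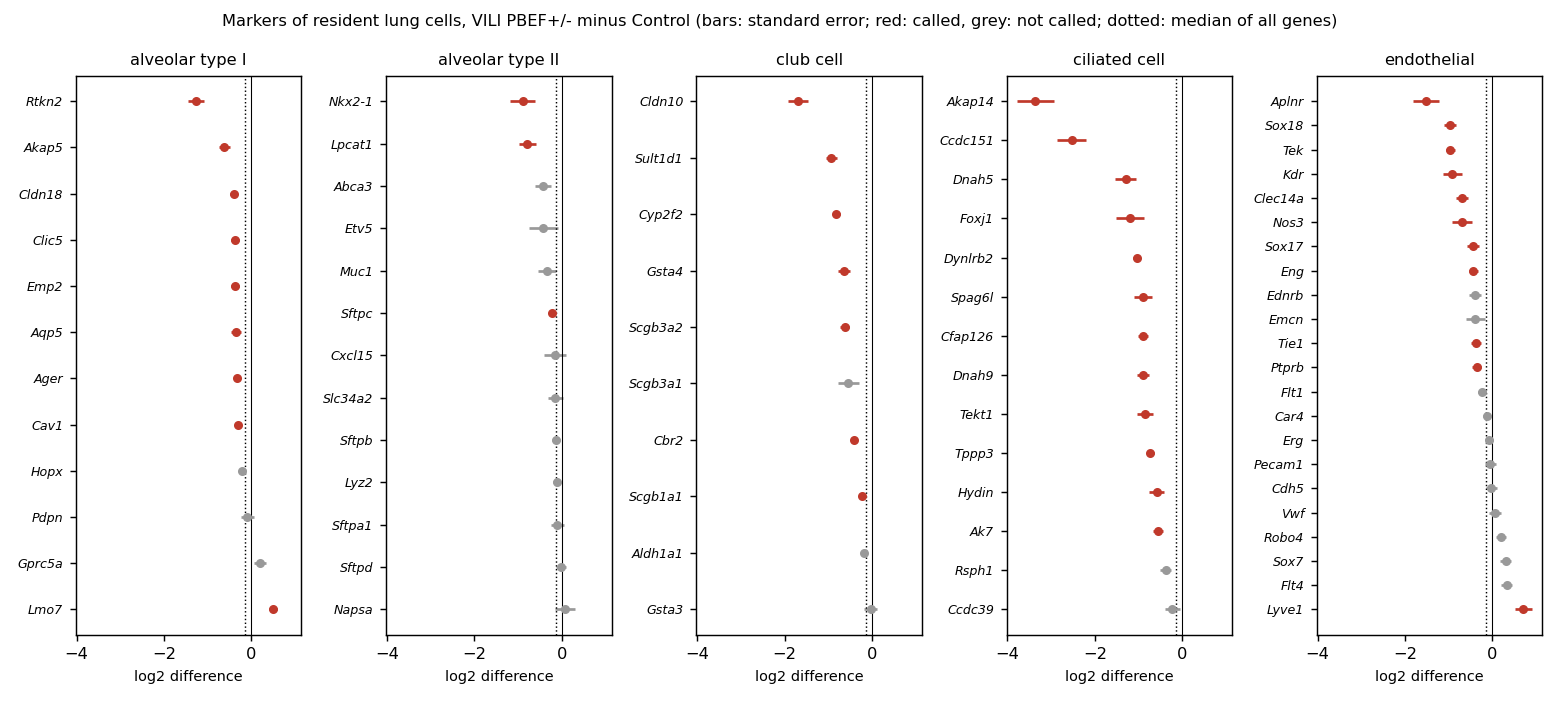
Log2 difference, VILI PBEF+/- minus Control, of every tested marker in 5 resident cell lists, 1 row per gene, with bars for the standard error (limma, 3 and 4 arrays), red for called genes and grey for genes not called; the dotted line is the median of all genes tested, -0.14. Ciliated and club cell markers lie to the left of that line apart from Gsta3, while many alveolar type II and endothelial markers lie on or near it.

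Endothelial markers were divided. Of 23 listed genes 10 were called lower and 1, Lyve1 of lymphatic endothelium, higher. Of the 22 tested that is 45.5% lower and 4.55% higher, beside 22.8% and 10.5% of all genes. The Lyve1 call was lost without VILI PBEF+/- replicate 1 or 2 or Control replicate 1 and with the high-Xist arrays. Leaving out VILI PBEF+/- replicate 1 or 2 gave 4 and 6 lower calls, leaving out Control replicate 2 or 4 gave 6 each, the high-Xist arrays gave 6 and centred arrays gave 5. Tek, the receptor for angiopoietins, read 12.37, 12.33 and 12.63 in VILI PBEF+/- lungs, against 13.26, 13.38, 13.38 and 13.60 in Control lungs (1.95-fold lower, limma adjusted p = 0.000682). Aplnr, the apelin receptor, was 2.87-fold lower and Sox18, an endothelial transcription factor, 1.95-fold. Pecam1 and Cdh5, the pan-endothelial junction genes, differed by -0.05 ± 0.13 and -0.02 ± 0.12 and were not called. Among 15 genes of the endothelial barrier, 4 were called higher and 4 lower, and no such call was made when VILI PBEF+/- replicate 1 or replicate 2 was left out. That is 26.7% each way, beside 10.5% higher and 22.8% lower among all genes tested. With the high-Xist arrays 1 was called higher and 1 lower. Sphk1, which makes sphingosine 1-phosphate, was 2.64-fold higher with all 7 arrays.

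Leukocyte adhesion genes showed 6 of 12 listed members called higher and 1 lower. Of the 9 tested that is 66.7% and 11.1%, beside 10.5% and 22.8% of all genes. Selp, P-selectin, which captures rolling leukocytes, read 9.64, 9.63 and 7.84 in VILI PBEF+/- lungs, against 4.62, 5.38, 5.39 and 5.42 in Control lungs (14.3-fold). Icam1, the ligand of leukocyte integrins, was 1.54-fold higher, and Icam2, its constitutive endothelial relative, 1.40-fold lower, a call lost without VILI PBEF+/- replicate 1. Coagulation and fibrinolysis genes had 8 of 18 listed members called higher and none lower, 66.7% of the 12 tested beside 10.5% of all genes. The count of higher calls was 4 without VILI PBEF+/- replicate 1, 5 without replicate 2 and 5 with the high-Xist arrays. F3, tissue factor, the starter of the extrinsic clotting cascade, read 13.93, 14.05 and 13.21 in VILI PBEF+/- lungs and 10.89 to 11.04 in Control lungs (6.83-fold, 2.77 ± 0.18, limma adjusted p = 8.82e-05). Plaur, the urokinase receptor, was 5.42-fold higher.

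Matrix remodelling genes rose, whereas no gene of the collagen and elastic fibre list was called higher. Of 20 listed remodelling genes 12 were called higher and none lower, and 3 of the 17 tested were below the array median in every Control array. Has1, a hyaluronan synthase, read 10.01, 10.21 and 8.96 in VILI PBEF+/- lungs and 2.32 to 4.05 in Control lungs (at least 33.6-fold). Ptx3, a pentraxin that binds the hyaluronan matrix with Tnfaip6, read 10.87, 10.18 and 8.70 in VILI PBEF+/- lungs and 3.73 to 4.28 in Control lungs (at least 38.3-fold). Tnfaip6 was 15.0-fold higher. Adamts4, an aggrecanase, was at least 33.5-fold and Timp1, an inhibitor of matrix metalloproteinases, 18.7-fold higher. Of 18 collagen and elastic fibre genes 5 were called lower and none higher, 29.4% of the 17 tested beside 22.8% of all genes. The list median was -0.21, beside -0.14 for all genes tested. The count of lower calls was 1 without VILI PBEF+/- replicate 1, 3 without VILI PBEF+/- replicate 3 or Control replicate 4 and 2 with centred arrays or with the high-Xist arrays. Col1a2, a chain of type I collagen, was 1.38-fold lower.

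Genes of B cells and of antigen presentation had many lower calls, in counts that depended on the fit. Of 12 B cell genes 7 were called lower and none higher, 77.8% of the 9 tested beside 22.8% of all genes. Cd79a and Cd79b, the signalling chains of the B cell receptor, were 2.80-fold and 2.75-fold lower. Cd79a read 8.11, 7.88 and 7.25 in VILI PBEF+/- lungs, against 9.76, 8.91, 9.38 and 8.87 in Control lungs. The count of B cell genes called lower was 3 without VILI PBEF+/- replicate 2 and 1 with the 5 high-Xist arrays. It was 2 with the Xist covariate and 2 with all 14 arrays. The MHC class II list had 7 of 10 genes called lower and none higher, 77.8% of the 9 tested beside 22.8% of all genes. Its count was 3 without VILI PBEF+/- replicate 1, 4 without Control replicate 2 and 4 with the high-Xist arrays. With all 14 arrays it was 2, and with the Xist covariate 1. H2-Ab1, a class II beta chain, read 12.91, 13.19 and 13.06 in VILI PBEF+/- lungs and 13.39 to 13.56 in Control lungs (1.33-fold lower). Of 16 T and NK cell genes 2, Nkg7 and Gzma, were called lower and none higher, or 1 without VILI PBEF+/- replicate 1 or Control replicate 1, 2 or 4, and 0 with the high-Xist arrays, the Xist covariate or all 14 arrays. Those 2 are 15.4% of the 13 tested, beside 22.8% lower among all genes.

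Channels for fluid and salt included 3 of 12 listed genes called lower and none higher, 30% of the 10 tested beside 22.8% of all genes, and 1 of the 10 was below the array median in every VILI PBEF+/- array. Aqp4, a water channel, read 3.33, 4.18 and 3.67 in VILI PBEF+/- lungs, against 6.49, 6.51, 6.95 and 6.71 in Control lungs (at least 4.05-fold lower). Scnn1g and Scnn1b, subunits of the epithelial sodium channel that clears alveolar fluid, were 1.52-fold and 1.45-fold lower. The largest fall of all was Cckar, a cholecystokinin receptor, at 6.60, 6.06 and 7.27 in VILI PBEF+/- lungs and 11.20, 11.13, 11.09 and 11.54 in Control lungs (24.2-fold, -4.60 ± 0.26, limma adjusted p = 4.6e-05). Wnt2, a mesenchymal Wnt ligand of the lung, was 7.88-fold lower, Gabrp, a GABA receptor subunit, 6.96-fold, and Kif26b, a kinesin family member, at least 6.55-fold.

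Nampt, which encodes PBEF, was not called. It read 10.79, 10.62 and 9.28 in VILI PBEF+/- lungs, against 10.21, 10.36, 10.21 and 9.95 in Control lungs (0.05 ± 0.33, limma adjusted p = 0.922). VILI PBEF+/- replicates 1 and 2 lay above all Control arrays and replicate 3 below all of them. Replicate 3 was also lowest for Il6, Cxcl1 and Ccl2. Without replicate 3 the difference was 0.52 ± 0.13 and was called (limma adjusted p = 0.0215), and it was below 0 in 7 other alternatives. In the other groups, Nampt read 9.34, 9.21 and 10.71 in PBEF+/- replicates 1 to 3 and 10.05, 9.91, 10.54 and 9.25 in VALI replicates 1 to 4. VILI PBEF+/- replicate 3 thus lay near PBEF+/- replicates 1 and 2, whereas VILI PBEF+/- replicates 1 and 2 did not. The cause was not tested. Genes of NAD metabolism were mixed, 3 of 20 higher and 3 lower, or 1 higher and 1 lower without VILI PBEF+/- replicate 2 and 1 higher without VILI PBEF+/- replicate 1 or Control replicate 2. That is 18.8% each way of the 16 tested, beside 10.5% higher and 22.8% lower among all genes. Nnmt, which methylates nicotinamide, was 2.30-fold higher, and the mitochondrial sirtuins Sirt3 and Sirt5 were 1.66-fold and 2.55-fold lower, the Sirt5 call being lost without VILI PBEF+/- replicate 2.

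Whether the ventilated PBEF+/- lungs differed from the VALI lungs was tested directly with all 14 arrays as labelled. No gene of 11361 was called by limma (0%), 1191 had an unadjusted p under 0.05, and the smallest adjusted p was 0.109. The array labelled VALI replicate 4 read like Control for Il6, and PBEF+/- replicate 3 read like the ventilated lungs. Leaving out VALI replicate 4 alone gave 0 calls (smallest limma adjusted p 0.184). PBEF+/- replicate 3 is in neither group of this comparison and enters it only through the shared spread. Setting aside VALI replicate 4 and PBEF+/- replicate 3 was a choice made from their Il6 values, and calls without them depend on it. Without both of these arrays 13 genes were called (0.114%), all higher in VILI PBEF+/- lungs, at limma adjusted p of 0.0397 to 0.0498. They were Ccl2, Ccl7, Csf1, Fos, Fosb, Dusp5, Ereg, Ccn1, Thbs1, Gadd45a, Phlda1, Gem and Rgs16, of which Dusp5, Ccl7, Csf1, Phlda1, Gem and Rgs16 are named after their values were seen. Ccl2 read 10.94, 10.65 and 8.08 in VILI PBEF+/- lungs, against 5.16, 4.54 and 5.67 in VALI replicates 1 to 3 (4.77 ± 0.60, limma adjusted p = 0.0397). Fosb read 10.97, 11.05 and 9.55 in VILI PBEF+/- lungs, against 6.33, 6.49 and 5.70 in those VALI arrays (4.35 ± 0.57, limma adjusted p = 0.0397). VALI replicate 4, at 3.67 for Ccl2 and 6.93 for Fosb, was below the VILI PBEF+/- arrays too. PBEF+/- replicate 3 read 6.92 for Ccl2 and 9.18 for Fosb, above the VALI arrays and below VILI PBEF+/- replicate 3, and for Thbs1 and Dusp5 its 13.31 and 9.12 exceeded the 13.17 and 9.08 of that replicate. With all labels kept, leaving out VILI PBEF+/- replicate 3 gave 9 calls and leaving out VALI replicate 3 gave 1. Age also differs between VILI PBEF+/- (8 to 12 weeks) and VALI (18 to 22 weeks), and cannot be told apart from the PBEF+/- label.

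**Figure D5:**
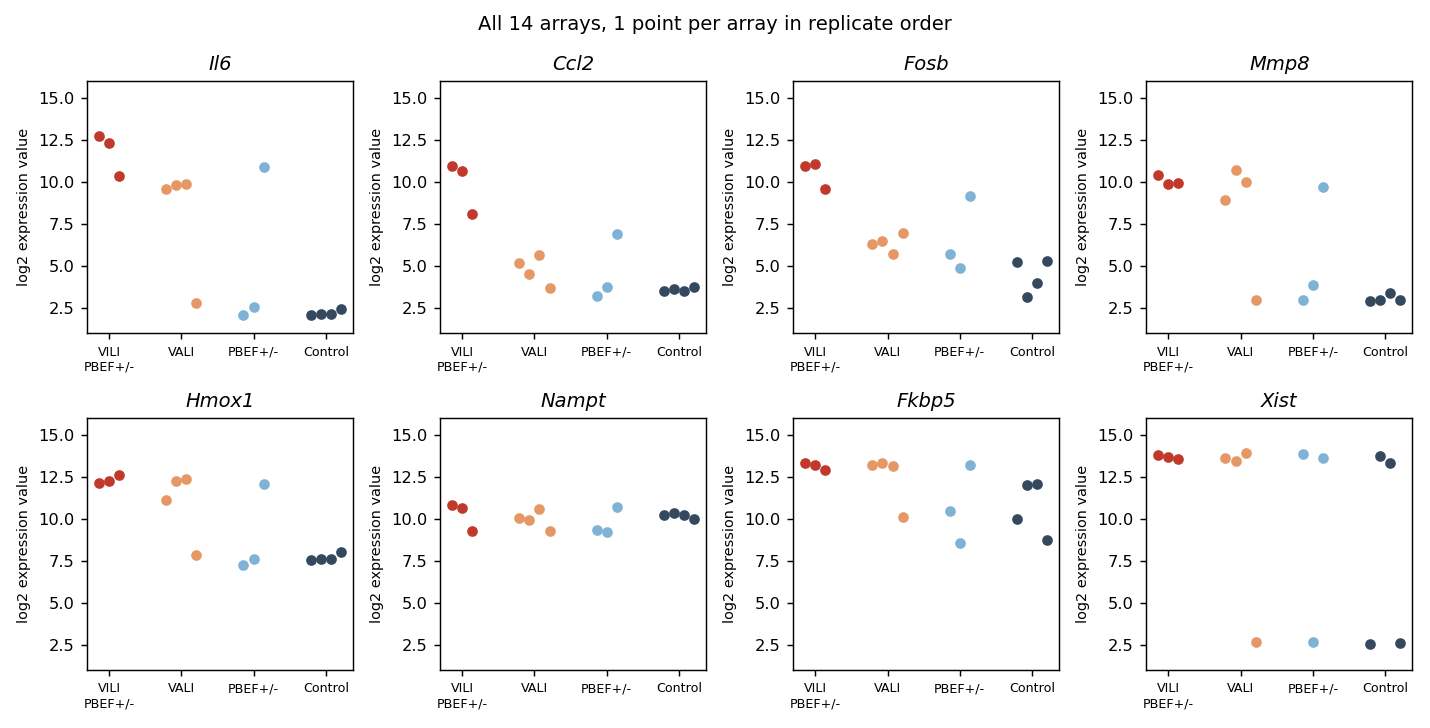
Log2 expression values (y axis) of 8 genes in all 14 arrays, 1 point per array, grouped as labelled. Ccl2 and Fosb are highest in the 3 VILI PBEF+/- arrays, Mmp8 and Hmox1 are also high in VALI replicates 1 to 3 (8.94 to 10.7 for Mmp8) and in PBEF+/- replicate 3 (9.68 for Mmp8), and Fkbp5 and Xist split the Control arrays into replicates 2 and 3 above replicates 1 and 4.

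Glucocorticoid-responsive genes had 5 of 14 listed members called higher and 1 lower, 35.7% and 7.14% beside 10.5% and 22.8% of all genes. The count of higher calls fell to 2 without VILI PBEF+/- replicate 1 or replicate 2. It was also 2 with the Xist level as a covariate, where the list median was 0.24, against 0.80 in the main fit. Fkbp5, a co-chaperone of the glucocorticoid receptor, read 13.28, 13.16 and 12.87 in VILI PBEF+/- lungs, against 9.97, 11.98, 12.04 and 8.72 in Control lungs (5.38-fold, limma adjusted p = 0.0400). Its Control values were split in the same way as Xist, with replicates 2 and 3 above replicates 1 and 4. The Fkbp5 call was lost in 11 of 22 alternatives. Among these were the Xist level as a covariate, all 14 arrays, and leaving out any 1 of VILI PBEF+/- replicates 1 to 3 or Control replicate 1. Over all alternatives the Fkbp5 difference lay between 1.06 and 2.88 on the log2 scale, against 2.43 in the main fit. The cause of the split was not tested. Cebpd, a transcription factor of the acute phase response, was 2.62-fold higher and Nr3c1, the receptor itself, 1.56-fold lower, a call lost without VILI PBEF+/- replicate 1 or 2 and with the high-Xist arrays.

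Markers of other tissues were examined as well. Of 12 heart genes 1, Actc1, was called lower (1.42-fold) and none higher, which is 8.33% lower beside 22.8% of all genes. That call was lost without VILI PBEF+/- replicate 1 or Control replicate 1, 2 or 4 and with the high-Xist arrays. Of 8 skeletal muscle genes 2 were tested and 1, Acta1, was higher, at 9.55, 11.90 and 8.63 in VILI PBEF+/- lungs and 4.61 to 4.69 in Control lungs (41.8-fold), while Mylpf, Tnnc2, Tnnt3, Myh4, Myh1 and Pvalb did not exceed the array median in 3 arrays. The mean level of the muscle list, Acta1 included, was 4.06 to 7.01 in VILI PBEF+/- lungs and 3.58 to 3.73 in Control lungs. The part of muscle tissue in the Acta1 value was not tested. Fat markers varied within both groups and none was called, but 2 were called higher without Control replicate 3. Adipoq read 11.58, 11.44 and 9.88 in VILI PBEF+/- lungs, against 8.75, 9.62, 12.68 and 8.06 in Control lungs. No thymus or red blood cell gene was called, and Alas2 of the red cell list read 5.12 to 8.48 in VILI PBEF+/- lungs and 6.72 to 8.34 in Control lungs.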

How the data were processed

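Lung RNA of 14 mouse arrays (Affymetrix Mouse430 2.0 type probe sets) was analysed from the deposited log2 expression values of the authors' series matrix; MAS5 and GCRMA are named in the submitters' processing notes without version or role, and no centring of genes was seen. Groups were taken from the titles. Of 45101 probe sets, 34958 had 1 gene symbol in the platform annotation, 932 several and 9211 none, and only the first kind was named. The probe set with the highest mean over the 7 arrays stood for its gene, and genes over the array median in 3 or more of 7 arrays were tested. limma 3.58.1 in R 4.3.3 (lmFit and eBayes with a variance trend) compared the groups, with Benjamini-Hochberg adjustment over all genes tested and calls at an adjusted p under 0.05. "At least" folds raise values below the array median to that median. Fold is 2 to the power of the log2 difference. The scripts were tested on simulated data. Named genes were Nampt, Il6, the 12 largest called rises and falls without overlap between groups, and up to 5 called members per list by p (or 2 uncalled ones); other genes were named after their values were seen. The 44 lists hold 676 entries, of which 632 had a probe set and 567 were tested. The members, lists and motifs were chosen with earlier results of these data known. Alternatives covered filters, scaling, probe set choice, array sets, the variance model, array weights, the replicate number as a block, Xist, and each array left out. Promoters are RefSeq's (GRCm38.p6). Figures were drawn with matplotlib 3.10.9.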

Additional observations from a re-analysis of the deposited data

Results flagged for a closer look

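Among 190 named genes, 15 had 1 Control array that lay apart from the other 3 by more than Dixon's critical value for 4 samples (gap to the nearest array divided by the range). Chance flags about 1 in 20 groups. The 3 VILI PBEF+/- arrays are too few for this test. Control replicate 1 was the array in 8 of them. It was higher than the others for Hspa1b (ratio 0.938, at 14.2 against 12.1 to 12.2) and Per3 (0.836), and lower for Cldn10 (0.963), F10 (0.894), Pfkfb3 (0.835), S100a8 (0.853, at 10.2 against 11.6 to 11.8), Selp (0.95) and Timp1 (0.894). Control replicate 3 was high for Alas2 (0.954), Cxcr2 (0.851) and Mmp8 (0.853). Control replicate 4 was high for H2-DMa (0.844) and Il6 (0.836) and low for Krt8 (0.831). Control replicate 2 was low for Psat1 (0.865). The Control values of Il6 and Mmp8 are all below the array medians, where values carry no reliable order, so their ratios cannot be read.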

How the results depend on the processing

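The count of 3748 calls (1182 higher, 2566 lower) lay within 1.5 times of itself under other filters, quantile normalization, centring on array medians, probe set means, 12 arrays, no variance trend and the 5 high-Xist arrays. It was 2193 (729 and 1464) with all 14 arrays, 7284 (2276 and 5008) with array weights and 2181 (1369 lower) with Xist as a covariate. Centring on the genes tested, chosen after seeing the data, left 1695 lower, and testing probe sets gave 1896 higher. Leaving out 1 array gave 1706 to 3838 calls, 646 to 1186 higher and 1060 to 2652 lower. Deviations of same-numbered arrays of the 2 groups from their group means correlated at 0.02, -0.04 and -0.18, and those of differently numbered arrays at -0.07 to 0.15. With so few arrays per group, these values cannot tell whether the replicate numbers pair the samples. With the replicate block 2190 genes were called (1351 lower), and with the block over 14 arrays 650 (322 and 328). Against VALI, the count of 0 became 13 with 12 arrays, 1 with only the VILI PBEF+/- and VALI arrays, and 0 to 9 with 1 array left out. Of 184 called named genes 73 kept the call in each alternative run and none turned its sign. Among genes not called, Adipoq reversed to -0.20 with the Xist covariate and -0.18 with high-Xist arrays, and Retn to -0.13 and -0.10. Alas2 reversed to 0.82 with array weights and lay between -1.23 and 0.45 with 1 array left out. Nampt reversed to -0.028 and -0.10 with the block (7 and 14 arrays), -0.067 with the Xist covariate and -0.055 with high-Xist arrays, and lay between -0.23 and 0.52 with 1 array left out. The cause of these changes was not tested. Values below the array medians limit what can be said of low genes.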

Other observations

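Genes of glucose uptake and glycolysis were also higher in VILI PBEF+/- lungs, 8 of 17 listed against 1 lower, Epas1, whose call was lost without each array in turn. Slc2a1, a glucose transporter, read 12.54, 12.78 and 11.83 in VILI PBEF+/- lungs and 10.21 to 10.57 in Control lungs (3.92-fold), and Hk2, a hexokinase, was 3.70-fold higher. Growth arrest genes had 7 of 13 higher and none lower. Gadd45a, a stress sensor, read 11.33, 11.04 and 11.18 in VILI PBEF+/- lungs and 8.04 to 8.41 in Control lungs (7.63-fold). Polyamine genes Odc1 and Sat1 were 2.51-fold and 2.19-fold higher within a list of 13 that had 4 higher and 1 lower. Of its 8 tested members that is 50% and 12.5%, beside 10.5% and 22.8% of all genes. Of 15 sterol genes 4 were higher and none lower, Hmgcs1 by 1.65-fold, which is 30.8% of the 13 tested beside 10.5% of all genes. The sterol count was 2 without any 1 of VILI PBEF+/- replicates 1 to 3 or Control replicates 2 and 3.

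Among all genes tested 10.5% were called higher and 22.8% lower. Beside that, interferon response genes had 7.14% and 21.4% of tested members called, clock genes 13.3% and 13.3%, and BMP, TGF-beta and Notch genes 10% and 25%. Retinoid and Wnt genes had 0% and 18.8%, and cell cycle genes 8.33% and 16.7%. These counts are not read as changes of the lists as groups. Interferon response genes had 1 of 18 higher, Irf1, and 3 lower, of which Ifit2 was 2.02-fold lower. Without VILI PBEF+/- replicate 1 the counts were 0 and 1, and 1 and 1 without replicate 2 or with the high-Xist arrays. Clock genes had 2 of 17 higher and 2 lower, or 1 lower without VILI PBEF+/- replicate 1 or 2 or Control replicate 1, 2 or 4, and 4 higher and 3 lower with the high-Xist arrays. Nfil3, which represses clock output genes, read 10.11, 10.32 and 9.81 in VILI PBEF+/- lungs, against 5.19, 7.52, 7.35 and 5.03 in Control lungs (14-fold), with Control replicates 2 and 3 above 1 and 4. Nr1d1, a clock repressor, was 2.52-fold lower. Bmp6 was 2.02-fold lower and Id3 1.52-fold higher among 22 BMP, TGF-beta and Notch genes, with 2 higher and 5 lower, or 2 lower without VILI PBEF+/- replicate 1. Wnt5a and Wnt3a were 2.24-fold and 3.38-fold lower among 20 retinoid and Wnt genes, 3 of which were lower and none higher, or 5 lower without Control replicate 4. Cell cycle genes had 1 of 18 higher and 2 lower, or 4 lower without Control replicate 1 and 1 lower without VILI PBEF+/- replicate 1 or Control replicate 2, 3 or 4. No cell cycle gene was higher without VILI PBEF+/- replicate 1 or 2 or Control replicate 2 or 3, and 2 were without Control replicate 4.

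Genes with an at least 2-fold rise had a median genomic span of 14374 bp, those with an at least 2-fold fall 25566 bp, and all other tested genes 25377 bp. Acta1 was also high in VALI replicates 1 and 4, at 15.15 and 15.83. The transcript G530011O06Rik was at least 38.8-fold higher, at 8.75, 10.05 and 11.01 in VILI PBEF+/- lungs and 3.35 to 3.84 in Control lungs.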
